A study of Mus musculus with 12 samples.

Results

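Monocarboxylate transporters carry lactate, pyruvate, ketone bodies and related small acids across membranes, and 10 genes of this system were followed here through a newborn mouse model of heart injury. The set held 6 members of the Slc16 transporter family (Slc16a1, Slc16a3, Slc16a7, Slc16a10, Slc16a12 and Slc16a13), the partner proteins basigin (Bsg) and embigin (Emb), and the 2 subunits of the mitochondrial pyruvate carrier (Mpc1 and Mpc2). Members were taken by symbol from the 52336 gene identifiers of the deposited table, and all 10 were found. All 10 also passed the filter on low values, a mean normalized read count of at least 10 over all libraries, which 14996 genes passed, and the lowest group mean of any member was 25.2 (Emb). No threshold was used, but the set was chosen by gene family in view of the normalized counts of these same libraries, in which Slc16a3 and Emb were already known to be higher after infarction. The tests of these 2 genes for infarction therefore place them among all genes and are no independent evidence.

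All animals were wild-type mouse pups. They were injected daily from postnatal day 0 to day 1 with N-acetylcysteine (NAC), a cysteine donor and antioxidant, or with saline. NAC was given at a dose the labels call high, dissolved in buffered saline (HEPES 25 mM, NaCl 140 mM). These buffer values are listed for every library, so whether the saline given alone held HEPES is not clear here. If it did not, an effect of NAC and one of the buffer cannot be told apart. On day 2 the pups had the left anterior descending coronary artery occluded to cause myocardial infarction (MI), or had a sham operation. Tissue was taken on day 3. Each of the 4 combinations had 3 libraries, called here saline MI, NAC MI, saline sham and NAC sham. Cardiomyocytes were isolated by digesting pooled ventricles and selecting cells with a kit for neonatal cardiomyocytes. The series text names the whole ventricle and the sample labels the left ventricle. Nothing states that the 3 libraries of a group came from separate animals or litters, so p-values measure only the spread between these libraries, which may be technical.

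Slc16 transporters that move lactate do so together with a proton, in the direction set by the gradient, and need a single-pass glycoprotein beside them to reach the cell surface. Basigin serves Slc16a1 and Slc16a3, and embigin, its close relative, is the usual partner of Slc16a7. The fetal heart burns glucose and lactate, and after birth cardiomyocytes turn to fatty acids. Pyruvate, made from glucose or lactate, enters mitochondria through the heterodimer of Mpc1 and Mpc2.

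The 12 libraries held 14353842 to 25118341 recovered reads. All 12 cardiomyocyte markers listed (Myh6, Tnnt2, Ttn and others) were detected in every group, and their summed level was 247710 to 689870 normalized counts per library, lowest in NAC sham 2. Markers of other cells were present in every group as well. The summed level of 7 red cell markers exceeded that of the cardiomyocyte markers in 7 of 12 libraries. Summed macrophage and monocyte markers (15 genes) were 849 to 1802 in 5 of the 6 sham libraries and 22078 in NAC sham 2, and 9620 to 14271 in 5 of the 6 MI libraries and 1113 in NAC MI 2. These 2 libraries thus stood against the others of their surgery. Some sample titles began with a code that the labels do not explain. Code R235 stood on saline MI 3, NAC MI 1 and NAC MI 2, code R230 on saline MI 1, saline MI 2 and NAC MI 3, code R207 on NAC sham 2, saline sham 1 and saline sham 2, and code R219 on saline sham 3, while the other NAC sham libraries carried no code. Because each code was used for 1 kind of surgery only, an effect of surgery and one of the title code cannot be told apart. In bulk RNA, a larger share of one cell type and more RNA of a gene per cell cannot be told apart either.

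Infarction went with higher levels of 1 lactate exporter and 1 partner protein. In MI against sham averaged over both treatments, Emb and Slc16a3 rose, 2 of 10 members, where 2.74% of all tested genes were called in either direction and 2.13% as higher (limma on log2(normalized count + 1), Benjamini-Hochberg adjusted p under 0.05). The other 8 members had log2 fold changes between -0.97 and 0.40 and adjusted p between 0.0953 and 0.818. After saline, the same 2 of 10 members rose (0.86% of all tested genes called). After NAC, Emb alone rose (0.127% of all tested genes called). The median log2 fold change of the 10 members in the averaged comparison was 0.29, and that of all tested genes 0.00. No member and no other gene (0%) was called by limma or edgeR for NAC against saline or for the interaction of NAC and MI. At an unadjusted p under 0.05, limma had 5.89% of all tested genes and 4 of 10 members for NAC after sham surgery, 9.22% and 3 of 10 after MI, 15.5% and 5 of 10 for the average, and 2.03% and 1 of 10 for the interaction. DESeq2 called 47, 11, 439 and 1 genes in these comparisons.

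**Figure D1:**
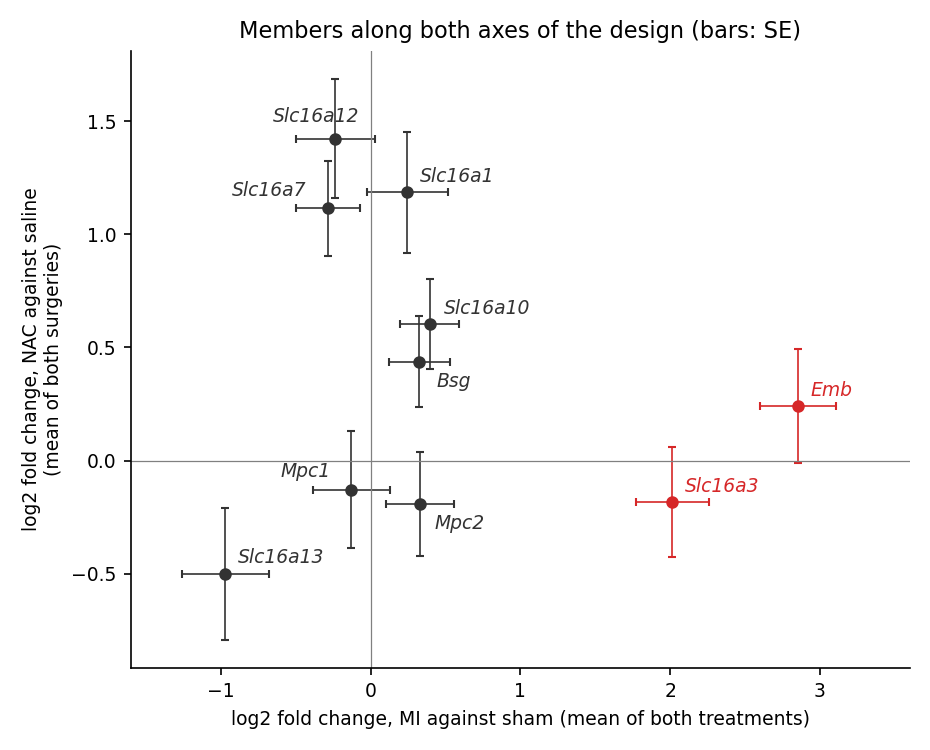
Log2 fold changes of the 10 members on the log2(normalized count + 1) scale, for MI against sham averaged over treatments (x axis) and NAC against saline averaged over surgeries (y axis), with bars of 1 SE from limma. The called genes Emb and Slc16a3 (red) lie far to the right near 0 on the NAC axis, whereas Slc16a12, Slc16a1 and Slc16a7 (not called) lie at the top near 0 on the MI axis. Both axes use the same 12 libraries.

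Slc16a3 encodes MCT4, the transporter of glycolytic cells that is best suited to lactate export and a known target of hypoxia-inducible factor (ENSMUSG00000025161, chr11:120948480-120960868, plus strand, mm10). Its normalized counts were 223, 196 and 155 in the saline sham libraries, 143, 243 and 160 in the NAC sham libraries, 947, 758 and 762 in the saline MI libraries, and 974, 897 and 352 in the NAC MI libraries. Every MI library was above every sham library, and NAC MI 3 was the lowest of the 6. The mean was 191 ± 34.5 (SD, n = 3) in saline sham and 822 ± 108 (SD, n = 3) in saline MI. The log2 fold change for MI after saline was 2.11 (SE 0.34), a 4.31-fold rise (limma, adjusted p = 0.0126), and the call was lost without any 1 of the saline MI libraries (adjusted p 0.0523 to 0.0963). After NAC the means were 182 ± 53.8 and 741 ± 339 (SD, n = 3 each), a log2 difference of 1.92 (SE 0.34) that missed the threshold (limma, adjusted p = 0.0535). It passed without NAC MI 3 (adjusted p = 0.0022), without NAC sham 2 (adjusted p = 0.025) and by edgeR on the recovered reads (adjusted p = 0.0358). In all it was called in 2 of 12 limma fits without 1 library (adjusted p up to 0.243) and in 6 of 10 other alternatives. Averaged over both treatments the log2 fold change was 2.01 (SE 0.24, limma adjusted p = 0.000882). The 2 effects of MI differed by -0.18 on the log2 scale (95% interval -1.23 to 0.86, limma adjusted p = 0.9999), and the sign turned without NAC MI 3 (0.28) or NAC sham 2 (0.04), so no difference between treatments was resolved.

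The stretch just before the RefSeq start site of Slc16a3 held the short core of the hypoxia response element, ACGTG, at 2 separate places, with first bases at -27 and -14 from the start. It is shown for that reason, as the 250 bases before the start site on the plus strand (chr11:120948817-120949066, GRCm38.p6, which corresponds to mm10), with both cores in capitals. Its last 14 bases lie in the first exon of another annotated transcript of the gene. The whole window lies downstream of the annotated gene start (120948480).
Slc16a3: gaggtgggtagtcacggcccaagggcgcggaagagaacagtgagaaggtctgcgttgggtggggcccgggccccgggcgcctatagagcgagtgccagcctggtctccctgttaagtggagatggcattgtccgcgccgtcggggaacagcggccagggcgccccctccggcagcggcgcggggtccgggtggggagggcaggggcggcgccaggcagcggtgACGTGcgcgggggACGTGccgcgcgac
Of 32851 RefSeq promoter windows of the same length, 16.6% held ACGTG on either strand and 1.95% held 2 or more that did not overlap. These windows were not matched for base content. The Slc16a3 window was 73.6% G or C with 29 CG pairs, and ACGTG itself holds a CG. A match is a run of letters and says nothing of whether a factor was bound in these cells.

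Emb encodes embigin, an immunoglobulin-superfamily glycoprotein that escorts monocarboxylate transporters (ENSMUSG00000021728, chr13:117208536-117274415, plus strand). The 12 libraries gave normalized counts of 18.8, 31.8 and 25.0 in the saline sham libraries, 28.1, 58.7 and 29.4 in the NAC sham libraries, 233, 181 and 281 in the saline MI libraries, and 271, 154 and 248 in the NAC MI libraries. All 6 MI libraries were above all 6 sham libraries, with NAC sham 2 the highest sham library and NAC MI 2 the lowest MI library. Such separation with MI higher was seen for 1.45% of all tested genes, and for Emb and Slc16a3 among the members. After saline, Emb rose 8.93-fold (log2 3.16, SE 0.36, 95% interval of the fold 5.22 to 15.3, limma adjusted p = 0.00193), from 25.2 ± 6.46 to 232 ± 49.7 (SD, n = 3 each). After NAC it rose 5.84-fold (log2 2.55, limma adjusted p = 0.0122), from 38.7 ± 17.3 to 224 ± 61.9 (SD, n = 3 each). The call after NAC was lost without NAC sham 1 (adjusted p = 0.0775), without NAC sham 3 (0.0613) and in a fit of those 2 groups alone (0.284). The effects after the 2 treatments differed by -0.61 on the log2 scale (95% interval -1.71 to 0.48, limma adjusted p = 0.9999). The antisense gene Gm17509, which overlaps Emb, had 4 reads in all 12 libraries.

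**Figure D2:**
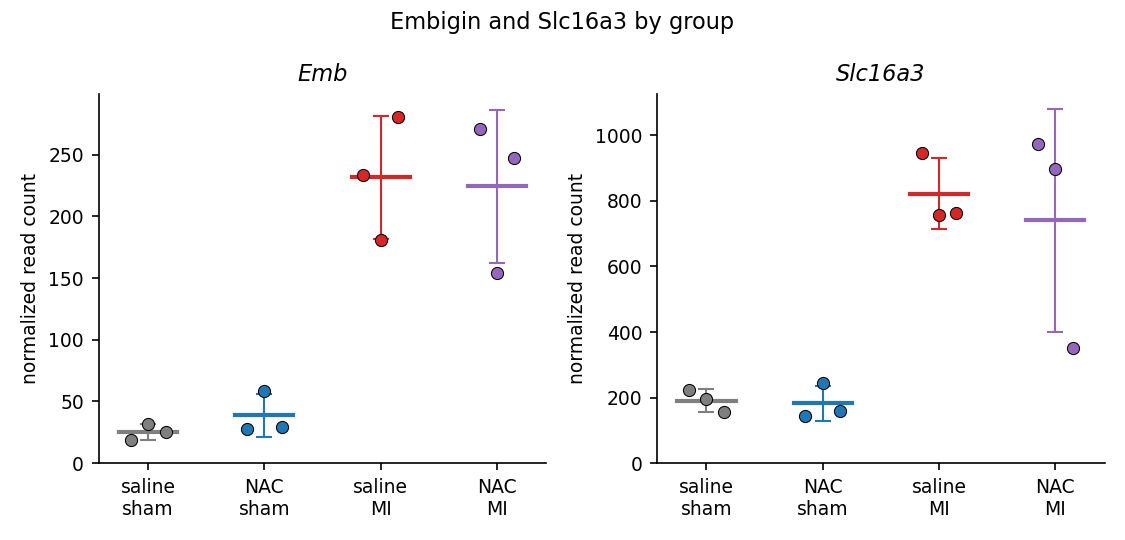
Normalized read counts of Emb and Slc16a3 in each of the 12 libraries (points), by group, with the group mean (thick line) and SD (error bar, n = 3). All MI points lie above all sham points, and the widest spread is that of Slc16a3 in NAC MI, from 352 to 974.

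Markers of blood cells moved with infarction too. After saline, all 15 macrophage and monocyte markers were higher in MI, with 2 called (Ccr2 and Cd14), and all 11 tested neutrophil markers were higher, with 7 called. Summed neutrophil markers were 126 to 1006 in the sham libraries, 5420 to 6386 in 5 of the MI libraries and 1090 in NAC MI 2. In NAC MI 2, where both sums were near the sham level, Emb was 154 against at most 58.7 in any sham library. Slc16a3 was 897 there against at most 243. Single markers did not all follow these sums. Of those called in a comparison of MI with sham, Ccr2 was 20.2 in NAC MI 2 against at most 8.93 in any sham library. Il1r2 was 37.9 against at most 4.68. Cxcr2, Mmp9, S100a8, S100a9, Stfa1 and Retnlg were also above every sham library there, whereas Cd14, Csf3r and Camp were not. NAC MI 2 also had summed epicardial markers of 17600, against at most 4374 in any other library. In NAC sham 2, which had the highest macrophage sum, Emb was 58.7 and Slc16a3 was 243, both the highest of the sham libraries and below every MI library. Of the same called markers, Cd14 (433), Csf3r (160) and Stfa1 (60.4) were also the highest of the sham libraries there. The others, with Ccr2 at 7.88 and Il1r2 at 3.50, lay within the range of the other sham libraries. Without NAC sham 2 and NAC MI 2, the averaged log2 fold change was 3.14 for Emb and 2.03 for Slc16a3, both called by limma. In the libraries left in that fit, the macrophage sums of the MI libraries were all above those of the sham libraries, so the fit does not separate surgery from these markers. Averaged over treatments, all 10 fibroblast markers were higher with MI, none called (median log2 difference 0.57), and 4 of 8 epicardial markers rose. Endothelial markers were lower in 9 of 10, none called (median -0.42). Of 8 tested smooth muscle and pericyte markers, Cnn1, a smooth muscle protein, rose (log2 2.33, limma adjusted p = 0.000745), and Rgs5, a pericyte marker, fell (log2 -1.47, limma adjusted p = 0.00344). The part of any of these cells in the values of Emb and Slc16a3 was not tested.

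**Figure D3:**
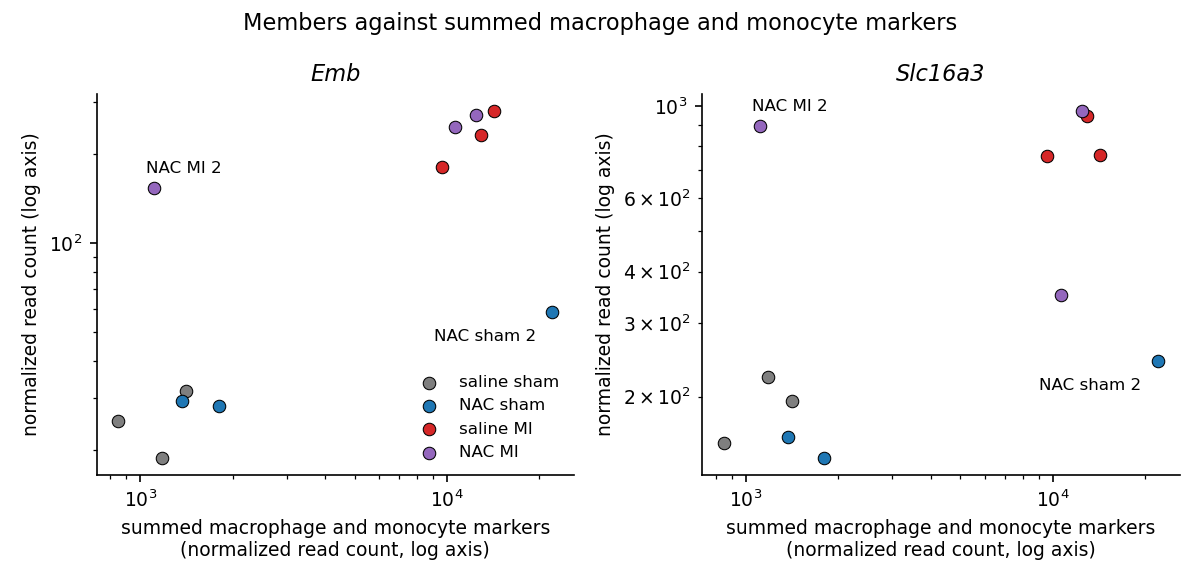
Normalized counts of Emb and Slc16a3 (y axis, log scale) against the summed normalized counts of 15 macrophage and monocyte markers (x axis, log scale) in each of the 12 libraries. NAC MI 2 lies at the left with a sum of 1113 with both genes above every sham library, and NAC sham 2 lies at the far right with a sum of 22078 and a level below every MI library. Single markers need not follow the sum: Ccr2 was 20.2 in NAC MI 2 and 7.88 in NAC sham 2.

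Bsg encodes basigin (CD147), the usual partner of the lactate carriers Slc16a1 and Slc16a3 (ENSMUSG00000023175, chr10:79704491-79711969, plus strand). It had the highest level of the set, with normalized counts of 4691, 5108 and 7875 in the saline sham libraries, 9702, 5562 and 9318 in the NAC sham libraries, 7943, 6423 and 7839 in the saline MI libraries, and 8219, 13537 and 8290 in the NAC MI libraries. The sham groups overlapped, and after MI each NAC library was above each saline library. No comparison of Bsg was called: the averaged log2 difference was 0.33 (SE 0.20, limma adjusted p = 0.38) for MI and 0.44 (SE 0.20, limma adjusted p = 0.32) for NAC. Unlike embigin, basigin therefore had no called change with infarction. A test of the difference between the genes was not run. Alternatives to the reported fit called Bsg for NAC averaged over surgeries in 2 of 9 settings, and in 0 of 12 fits without 1 library.

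On the NAC axis, Slc16a1, Slc16a7 and Slc16a12 were higher in all 6 NAC libraries than in all 6 saline libraries, 3 of 10 members, where 0.447% of all tested genes showed this order. None of the 3 passed the adjusted threshold in limma. The set was chosen with earlier results of these data known, so the share of 3 of 10 is no independent evidence. Of the 6 tested Slc16 genes outside the set, 2 were higher and 4 lower with NAC on average, none called (median log2 difference -0.13).

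Slc16a1 encodes MCT1, the widely expressed transporter that takes up lactate in the heart (ENSMUSG00000032902, chr3:104638668-104658462, plus strand). Normalized counts of this gene were 734, 1120 and 682 in the saline sham libraries, 2770, 1181 and 2433 in the NAC sham libraries, 1088, 929 and 1114 in the saline MI libraries, and 1847, 4148 and 1438 in the NAC MI libraries. The highest saline library (1120) was just below the lowest NAC library (NAC sham 2, 1181). NAC against saline gave a log2 difference of 1.27 after sham surgery, 1.10 after MI and 1.19 (SE 0.27) on average, a 2.27-fold difference (95% interval 1.52 to 3.40) with an unadjusted p of 0.000704 and an adjusted p of 0.172 in limma. The averaged difference between MI and sham was 0.25 on the log2 scale (SE 0.27) and turned to -0.17 without NAC sham 2 and NAC MI 2.

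Slc16a7 encodes MCT2, a carrier of high affinity for lactate and pyruvate (ENSMUSG00000020102, chr10:125219270-125389465, minus strand). Its normalized counts were 68.1, 80.4 and 78.5 in the saline sham libraries, 205, 149 and 194 in the NAC sham libraries, 61.7, 59.4 and 85.8 in the saline MI libraries, and 156, 179 and 88.2 in the NAC MI libraries. The NAC libraries were again above all saline libraries, by the narrowest margin after MI, where NAC MI 3 (88.2) lay just above saline MI 3 (85.8). The averaged log2 difference was 1.11 (SE 0.21), a 2.17-fold difference with an unadjusted p of 0.000149 and an adjusted p of 0.168 in limma.

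Slc16a12 encodes MCT12, which carries creatine and its precursor rather than lactate (ENSMUSG00000009378, chr19:34668403-34747289, minus strand). The 12 libraries gave normalized counts of 85.5, 68.5 and 67.8 in the saline sham libraries, 174, 110 and 201 in the NAC sham libraries, 41.5, 32.7 and 86.7 in the saline MI libraries, and 159, 230 and 132 in the NAC MI libraries. The lowest NAC library (NAC sham 2, 110) was above the highest saline library (saline MI 3, 86.7). The gene had the largest averaged difference for NAC of the members, 1.42 on the log2 scale (SE 0.26), which is 2.68-fold (95% interval 1.81 to 3.98), with an unadjusted p of 0.000122 and an adjusted p of 0.168 in limma. None of 7 genes of creatine handling (Slc6a8, Gatm, Ckm and others) was called for NAC, and their median log2 difference was -0.12, where that of all tested genes was -0.02.

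**Figure D4:**
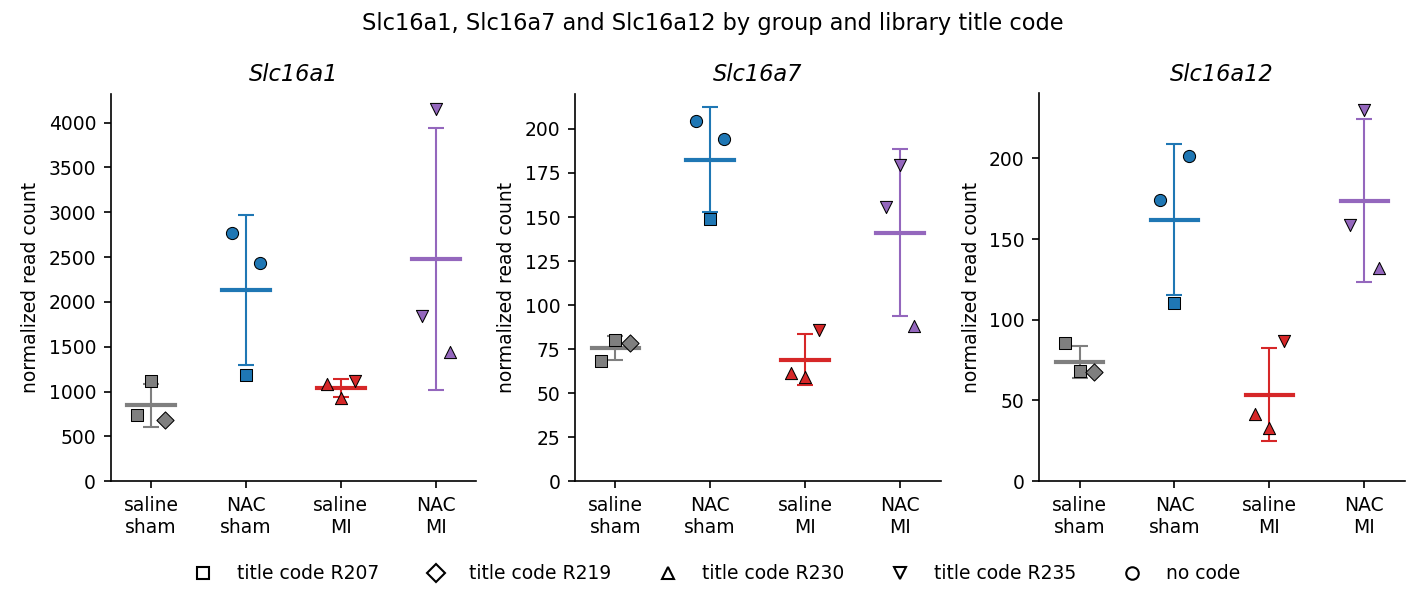
Normalized read counts of Slc16a1, Slc16a7 and Slc16a12 in each library (points), by group, with the group mean (thick line) and SD (error bar, n = 3). Symbols mark the title code of the library. In each panel every NAC point lies above every saline point, and NAC sham 2 (blue square) is the lowest NAC sham library.

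The codes R207, R230 and R235 held both treatments, with 1 or 2 libraries on each side. For Slc16a1, Slc16a7 and Slc16a12 the direction within a code is fixed by the order over all libraries, so only the sizes add to it. For Slc16a1 the log2 difference of NAC against saline was 0.38 in R207, 0.52 in R230 and 1.31 in R235. For Slc16a7 it was 0.999, 0.54 and 0.95, and for Slc16a12 0.52, 1.82 and 1.13. With the title code as a term, the log2 difference for NAC after MI was 0.91 for Slc16a1, 0.75 for Slc16a7 and 1.47 for Slc16a12, none called (limma, adjusted p = 0.397, 0.392 and 0.392). Bsg was higher with NAC under all 3 codes, and Slc16a3 and Emb were each higher under 2 codes and lower under the other.

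The calls on this axis turned on the test and on single libraries. DESeq2 on the recovered reads called all 3 genes for NAC averaged over surgeries (adjusted p = 0.00125 for Slc16a1, 0.000234 for Slc16a7 and 0.000369 for Slc16a12, among 439 genes called), and edgeR called none of them or of any other gene (adjusted p = 0.128 for each of the 3). Without NAC sham 2, limma called all 3 (adjusted p = 0.0163, 0.0226 and 0.0163, among 250 genes called). Without NAC MI 3, limma called Slc16a7 (adjusted p = 0.0429). NAC sham 2 was also the library with the fewest cardiomyocyte marker counts. Red cell markers moved the other way: all 7 were lower with NAC on average, none called, and their summed level was 547257 to 1397997 in the saline libraries and 189067 to 521621 in the NAC libraries, without overlap. Endothelial markers were lower with NAC on average in 9 of 10, none called (median log2 difference -0.24). All 8 epicardial markers were higher with NAC after MI, none called (median log2 difference 0.69). Their summed level was 17600 in NAC MI 2 and 1782 to 4374 in the other 11 libraries, and NAC MI 2 was also the highest library for Slc16a1 (4148), Slc16a12 (230) and Bsg (13537). The part of cell makeup in the values of these transporter genes was not tested.

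The RefSeq windows before the start sites of Slc16a1 and Slc16a12, the 2 genes of this trio in the promoter table, each held 1 palindromic E-box, CACGTG, which also holds ACGTG on both strands. They are shown with the E-box in capitals, as the 250 bases before the start at chr3:104638414-104638663 (plus strand) and chr19:34747329-34747578 (minus strand) of GRCm38.p6, read in the direction of the gene.
Slc16a1: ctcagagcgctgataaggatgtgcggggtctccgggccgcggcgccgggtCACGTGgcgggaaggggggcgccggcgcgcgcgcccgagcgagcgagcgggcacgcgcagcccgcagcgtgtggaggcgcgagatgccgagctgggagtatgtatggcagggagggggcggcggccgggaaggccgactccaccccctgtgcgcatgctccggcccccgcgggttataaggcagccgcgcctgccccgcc
Slc16a12: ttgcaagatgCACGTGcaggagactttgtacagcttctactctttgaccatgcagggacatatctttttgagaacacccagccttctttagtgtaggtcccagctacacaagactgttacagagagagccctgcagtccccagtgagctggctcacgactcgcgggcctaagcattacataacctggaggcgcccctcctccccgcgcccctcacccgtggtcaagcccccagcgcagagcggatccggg
The E-box began at -200 in Slc16a1 and at -240 in Slc16a12. Of the 32851 windows, not matched for base content, 6.02% held CACGTG. The 5 windows of Emb, Mpc1 (which has 2), Mpc2 and Slc16a10 held neither motif. Slc16a7, Slc16a13 and Bsg were not matched, so 7 of 10 members were read. All 250 bases of the Emb and Mpc2 windows lay in annotated exons of the same gene. The windows of Slc16a3 and Mpc1 also lay downstream of the annotated gene starts. The sequence before the annotated gene starts of Emb, Mpc2, Slc16a3 and Mpc1 was therefore not read.

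Slc16a10 encodes TAT1, which carries aromatic amino acids and thyroid hormone and needs no proton (ENSMUSG00000019838, chr10:40033532-40142258, minus strand). Normalized counts of this gene were 116, 150 and 177 in the saline sham libraries, 336, 307 and 327 in the NAC sham libraries, 288, 259 and 291 in the saline MI libraries, and 315, 433 and 182 in the NAC MI libraries. All 3 saline sham libraries were below those of the other groups, saline MI was below NAC sham, and NAC MI spanned both. The log2 difference was 1.14 (SE 0.28) for NAC after sham surgery and 0.94 (SE 0.28) for MI after saline, against 0.06 for NAC after MI and -0.14 for MI after NAC. None of these was called (limma, adjusted p = 0.77, 0.183, 0.949 and 0.862), nor in any of the 12 fits without 1 library. Other alternatives called NAC after sham surgery in 4 of 10 settings and MI after saline in 3 of 10. The interaction was -1.08 (95% interval -1.94 to -0.22), with an unadjusted p of 0.0172 and an adjusted p of 0.9999 in limma. The difference after MI took the other sign without NAC MI 2 (-0.22), and that of MI after NAC did so without NAC MI 3 (0.19). Of its companion genes, Slc3a2, the heavy chain of amino acid exchangers, had a log2 difference of 0.68 (limma adjusted p = 0.0668) for MI on average, and Slc7a8, an exchanger of neutral amino acids, 1.93 (limma adjusted p = 0.0629). No gene among the 7 tested on that list was called.

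Slc16a13 encodes MCT13, a less studied member of the family (ENSMUSG00000044367, chr11:70216789-70221064, minus strand). It was the member that lay lowest after MI relative to sham. Its normalized counts were 439, 340 and 267 in the saline sham libraries, 154, 396 and 145 in the NAC sham libraries, 150, 212 and 104 in the saline MI libraries, and 133, 79.6 and 173 in the NAC MI libraries. The saline groups did not overlap, and NAC sham 1 and 3 lay among the MI libraries. The averaged log2 difference for MI was -0.97 (SE 0.29, limma adjusted p = 0.0953), a value that DESeq2 called (adjusted p = 0.0199) and edgeR did not (adjusted p = 0.0916). After NAC the difference was -0.75, and it was 0.02 without NAC sham 2 and NAC MI 2. Its neighbour Slc16a11, whose annotated end faces that of Slc16a13 on the opposite strand without overlap, had means of 104 ± 47.6 after saline and sham surgery, 30.1 ± 18.4 after saline and MI, 50.5 ± 39.0 after NAC and sham surgery and 12.7 ± 13.9 after NAC and MI (SD, n = 3 each). Its averaged log2 difference for MI was -2.07 (limma adjusted p = 0.0853), not called. Slc16a11 belongs to the 8 other Slc16 genes, of which 6 were tested and none was called in any comparison.

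Mpc2 encodes the larger-count subunit of the mitochondrial pyruvate carrier (ENSMUSG00000026568, chr1:165460637-165481214, plus strand). The 12 libraries gave normalized counts of 1930, 1467 and 2756 in the saline sham libraries, 2366, 984 and 2294 in the NAC sham libraries, 2857, 2786 and 1991 in the saline MI libraries, and 2063, 2587 and 1945 in the NAC MI libraries. All 4 groups overlapped, with NAC sham 2 lowest. The averaged log2 difference was 0.33 for MI (95% interval -0.16 to 0.82, limma adjusted p = 0.438) and -0.19 for NAC (95% interval -0.69 to 0.30, limma adjusted p = 0.703).

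Mpc1, the other subunit (ENSMUSG00000023861, chr17:8282904-8297661, plus strand), was read at a low level. Normalized counts of this gene were 107, 129 and 115 in the saline sham libraries, 91.2, 69.2 and 121 in the NAC sham libraries, 95.3, 91.4 and 87.7 in the saline MI libraries, and 56.3, 92.2 and 178 in the NAC MI libraries. NAC MI held both the lowest and the highest library, and saline MI lay below saline sham without overlap (log2 difference -0.35, limma adjusted p = 0.764). The averaged log2 difference was -0.13 for MI (95% interval -0.69 to 0.43) and -0.13 for NAC (95% interval -0.69 to 0.43), neither called (limma, adjusted p = 0.818 and 0.835). This level is uncertain, since the processed pseudogene Mpc1-ps (chr12:110858565-110858894, minus strand), a copy of 330 bases, equals the Mpc1 reading frame at 329 of them. From base 42 of the reading frame to its end at base 330 the copies are identical over 289 bases, of which the first 120 are shown from the GENCODE transcripts to make plain that a short read from here could come from either.
Mpc1 and Mpc1-ps: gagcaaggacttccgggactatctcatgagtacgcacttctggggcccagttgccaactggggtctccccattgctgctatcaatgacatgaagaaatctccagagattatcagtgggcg
Mpc1-ps was listed at 139 to 353 normalized counts and took 57.5% to 81.0% of the sum of both in every library. The sum was 344 ± 83.1 in saline sham and 323 ± 76.4 in saline MI, and 317 ± 94.9 in NAC sham and 413 ± 117 in NAC MI (SD, n = 3 each). All 4 groups overlapped in the sum. How the counting split reads between the copies was not given in the sources used here.

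**Figure D5:**
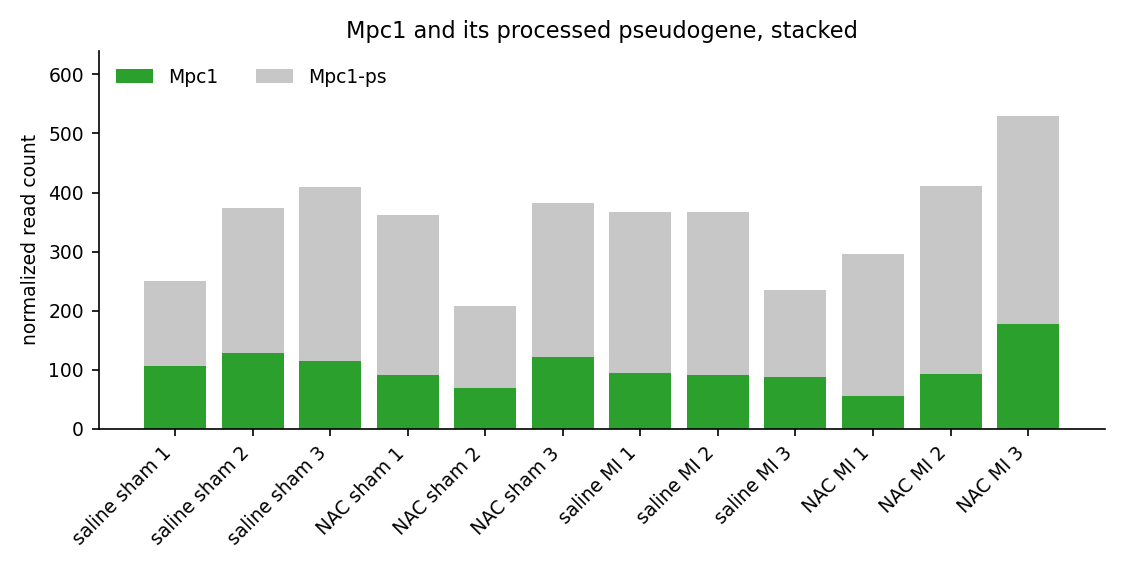
Normalized read counts of Mpc1 (green) and of its processed pseudogene Mpc1-ps (grey), stacked, in each of the 12 libraries. The grey part is the larger in every library, 57.5% to 81.0% of the stack, and the stacks of the 4 groups overlap.

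Levels of different genes can be compared only per length, and below Bsg their order changed between groups. Length was that of all annotated exons of a gene together, not of the transcript expressed, so the order of genes is approximate. The place of Mpc1 is uncertain because of Mpc1-ps. All values here are mean normalized counts per kb of exon (n = 3 libraries per group), and Bsg was above every other member in each library. In saline sham they were 3248 for Bsg, 279 for Mpc2, 191 for Slc16a1, 134 for Slc16a13, 56.2 for Mpc1, 35.9 for Slc16a3, 20.1 for Slc16a10, 17.7 for Slc16a12, 6.39 for Slc16a7 and 3.65 for Emb. The ranges of neighbours overlapped there between Mpc2 and Slc16a1, Slc16a1 and Slc16a13, and Slc16a10 and Slc16a12, and the other neighbours were apart. In saline MI the order was Bsg (4080), Mpc2 (347), Slc16a1 (236), Slc16a3 (155), Slc16a13 (59.9), Mpc1 (43.9), Slc16a10 (38.0), Emb (33.6), Slc16a12 (12.9) and Slc16a7 (5.82). Here the neighbours that overlapped were Slc16a13 and Mpc1, and Slc16a10 and Emb. Slc16a3 was thus below Slc16a13 in saline sham (29.1 to 42.0 against 102 to 169) and above it in saline MI (142 to 178 against 40.1 to 81.7), in each case without overlap. Emb was below Slc16a7 in saline sham (2.73 to 4.60 against 5.76 to 6.79) and above it in saline MI (26.2 to 40.6 against 5.02 to 7.24). In the NAC groups more neighbours overlapped. With NAC, Slc16a1 came next after Bsg, at 481 after sham surgery and 560 after MI, and its range overlapped that of Mpc2 (256 and 299). Slc16a3 was at 34.3 and 139 in the same order, Slc16a7 at 15.4 and 11.9, and Emb at 5.61 and 32.5.

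The ratio of exporter RNA to uptake carrier RNA was highest in saline MI. The ratio of Slc16a3 to Slc16a1 per kb was 0.145 to 0.253 in saline sham and 0.569 to 0.724 in saline MI, and 0.0429 to 0.172 in NAC sham and 0.180 to 0.439 in NAC MI. Saline MI was above all other libraries, and NAC MI lay between it and the sham groups with an overlap with saline sham. Emb RNA stayed far below Bsg RNA in every library. Its level per kb was 0.00076 to 0.00277 of that of Bsg in the sham groups and 0.00299 to 0.0094 in the MI groups. These ratios are built from the values above and were not tested.

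Enzymes on either side of the transporters mostly stayed uncalled. Among 20 genes that interconvert or burn lactate and pyruvate, 0 were called in any comparison, and the median averaged log2 difference for MI was 0.04, where that of all tested genes was 0.00. Ldha, the lactate dehydrogenase subunit of glycolytic tissue, had a log2 difference of 0.45 (limma adjusted p = 0.134), and Pdp1, a phosphatase that switches pyruvate dehydrogenase on, of -0.43 (limma adjusted p = 0.12). Of 18 glycolysis genes, 3 rose in MI averaged over treatments: Slc2a1, the basal glucose transporter (log2 0.92, limma adjusted p = 0.031), Pgam1 (log2 0.73, limma adjusted p = 0.00337) and Eno1 (log2 0.51, limma adjusted p = 0.0487). Of 15 hypoxia-response genes, 3 rose: Egln3, an oxygen-sensing prolyl hydroxylase (log2 0.72, limma adjusted p = 0.0171), Bnip3, a mitophagy receptor (log2 0.90, limma adjusted p = 0.0177), and P4ha1, a collagen prolyl hydroxylase (log2 0.67, limma adjusted p = 0.0441). The medians were 0.41 for glycolysis and 0.01 for the hypoxia list, and no gene of either list was called as lower. Among 5 ketone body genes, 0 were called, and Bdh1, which interconverts the ketone bodies, had 0.92 (limma adjusted p = 0.138). For NAC averaged over surgeries, 0 genes of any of the 8 pathway lists were called by limma. Nptn, which encodes neuroplastin, another relative of basigin, was higher in all 6 NAC libraries than in all 6 saline ones (log2 0.37, limma adjusted p = 0.22).

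Pearson's r of the log2 values over the 12 libraries was 0.90 between Slc16a3 and Emb, 0.90 between Slc16a7 and Slc16a12, 0.84 between Slc16a1 and Slc16a7, and 0.12 between Slc16a1 and Slc16a3. For transporters with their usual partners, r was 0.78 for Slc16a1 with Bsg, 0.28 for Slc16a3 with Bsg and -0.16 for Slc16a7 with Emb. The lowest r of any pair of members was -0.89, between Slc16a13 and Bsg. The points of each pair share library, depth, group and cell makeup, so these values restate in part the order of the groups and describe the 12 libraries. Among all tested genes outside the set, those near Slc16a1 included Rnf128 (r = 0.97) and Cxadr (0.97). The nearest to Slc16a3 were Loxl4 (0.97), Rab44 (0.96) and Ckap4 (0.96). The nearest to Bsg were Epdr1 (0.96), Maged1 (0.95) and Fuca2 (0.95), and the nearest to Emb were Chil1 (0.98), Trf (0.98) and Ifi30, a lysosomal reductase of antigen-presenting cells (0.98).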

How the data were processed

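The deposited table held normalized read counts (signal) that the authors had made by dividing gene counts by 1 size factor per library. Multiplied back, 100% of values came within 0.01 of whole reads. STAR 2.7.10a, the mm10 build and DESeq2 1.44.0 are listed, without roles, in the submitters' processing notes. The gene counter, its annotation and the strand are not given in the sources used here. Identifiers were matched to GENCODE vM21 (52027 of 52336). Values were tested as log2(value + 1) with limma 3.58.1 (R 4.3.3, trended, two-sided) in 1 model of 4 group means over 12 libraries (8 residual degrees of freedom), with Benjamini-Hochberg adjustment over 14996 genes and calls at an adjusted p under 0.05. Fold changes on this scale understate those of low genes. The share of all tested genes without overlap is given only for the 2 averaged comparisons. A lack of overlap between 2 groups of 3 libraries is a description only. The test was checked on simulated data in which all libraries had the same spread. That check does not cover libraries of unequal quality, and the quality weights here ranged from 0.25 (NAC sham 2) to 4.7 (saline MI 1). Alternatives were other pseudocounts and filters, edgeR 4.0.16 and DESeq2 1.42.0 on recovered reads, library weights, fits of 2 groups or with the title code, and libraries left out. Replicate numbers follow accession order and pair nothing. Promoter windows came from RefSeq (GRCm38.p6) and the Mpc1 transcripts from GENCODE. Members and lists were chosen with earlier results of these data known. The text names all 10 members, the called genes and the 2 with the smallest p (MI averaged) of pathway lists where they bear on a member, and for 4 members the 3 genes with the highest r, of which 1 is not reported here.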

Additional observations from a re-analysis of the deposited data

How the results depend on the processing

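The labels give no replicate numbers to use as a block. Some titles share a code, and NAC against saline after MI was fitted with that code as a term, which called 0 genes, as the reported fit did. Over 34 results of single members and 734 alternative values, 661 kept their direction and their side of the threshold, 6 lost a call, 51 gained one and 16 turned in sign. Emb kept its call for MI averaged over treatments, and after saline, under every alternative run, and Slc16a3 kept its call for MI averaged over treatments under every alternative run.

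The number of genes called for MI after saline, 129 in the fit reported, was 464 with DESeq2, 2915 with library quality weights, 607 without NAC sham 2 and NAC MI 2, 1807 without saline sham 3 as well, and 507 in a fit of those groups alone. Leaving out 1 library at a time gave 15 (without saline MI 1) to 326 (without NAC sham 2). For MI after NAC, 19 genes became 43 with a pseudocount of 5, 10 at a mean of at least 50, 241 with DESeq2, 806 with weights, 381 and 575 without the 2 or 3 libraries, and 1 in a fit of those groups alone, and 8 (without NAC sham 1) to 67 (without NAC sham 2) without 1 library. For MI averaged over treatments, 411 genes became 1224 with DESeq2, 4187 with weights, and 798 and 2183 without the 2 or 3 libraries, and 133 (without saline MI 1) to 1563 (without saline sham 3) without 1 library.

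For NAC, where 0 genes were called, the count after sham surgery was 47 with DESeq2, 421 with weights, 278 and 418 without the 2 or 3 libraries, and 0 to 80 (without NAC sham 2) without 1 library. After MI it was 11 with DESeq2, 685 with weights, and 0 to 4 (without NAC MI 3) without 1 library. Averaged over surgeries it was 439 with DESeq2, 2021 with weights, 167 and 328 without the 2 or 3 libraries, and 0 to 250 (without NAC sham 2) without 1 library. For the interaction it was 1 with DESeq2, 6 without the 3 libraries, and 0 to 4 (without NAC MI 3) without 1 library. The cause of these shifts was not tested.

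Signs turned only for log2 differences that were not called. Without NAC sham 2 and NAC MI 2, and without saline sham 3 as well, Slc16a13 for MI after NAC gave 0.0201 in both fits, Slc16a1 for MI averaged over treatments -0.17 and -0.24, and Slc16a10 for NAC after MI -0.22 in both, against -0.12 with the title code as a term. Mpc2 for NAC averaged over surgeries gave 0.0715 without the 3 libraries, and the interaction of Slc16a3 gave 0.34 with weights. Without 1 library, the log2 difference ranged from -0.43 to 0.19 for Slc16a10 in MI after NAC, from -0.22 to 0.40 for Slc16a10 in NAC after MI, from -0.34 to 0.0661 for Mpc1 in MI averaged over treatments and from -0.34 to 0.0669 in NAC averaged over surgeries, from -0.30 to 0.0143 for Mpc2 in NAC averaged over surgeries, and from -0.45 to 0.28 for the interaction of Slc16a3.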
